A study of Rattus norvegicus with 8 samples.

Results

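The E2F transcription factors and the retinoblastoma pocket proteins that bind them were followed in the rat kidney through a set of 10 genes: the activators E2f1, E2f2 and E2f3, the repressors E2f4, E2f5, E2f6 and E2f8, and the pocket proteins Rb1, Rbl1 and Rbl2. Members were taken by gene symbol, through the RefSeq accession that each array probe carries. This gave 12 probes for 7 of the 10 genes, out of 41012 probes and 14400 named genes on the array. E2f2, E2f5 and E2f8 were not analysed here. Of the 7 genes, 6 passed the filter on dim probes and were tested, and Rbl1 was not.

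RNA came from the right kidney of F344/NSlc rats, all female and 10 weeks old, of which 4 had sham surgery and 4 had unilateral nephrectomy, the removal of 1 kidney. The labels name no mutation, drug or transgene in either group. By the design text every kidney was taken on day 2, but by the source names the sham kidneys were taken on day 1 and the nephrectomized kidneys on day 2, and in that case day and operation cannot be told apart. Every sample had an Agilent array of its own with 1 colour, and a level below is the log2 of the probe's processed signal minus the array's 75th percentile, so 0 is that percentile.

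E2F factors bind DNA with a dimer partner at the promoters of genes for entry into S phase. In resting cells the pocket proteins hold the activating E2Fs in check and form repressor complexes with E2f4 and E2f5. Cyclin D and cyclin E kinases phosphorylate the pocket proteins, the E2Fs are released, and the activators then drive S phase genes, E2f1 and Rbl1 among them. Most tubule cells of the adult kidney are at rest.

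The 75th percentile of the processed signal lay between 460 and 643 in sham and between 388 and 497 in nephrectomized kidneys, and no probe was saturated. All 5 proximal tubule, 5 distal nephron and 4 podocyte markers were well above background on all 8 arrays, with none called changed. The arrays lay on 2 slides with 2 of each group on both, but sham arrays always had positions 1 and 2 and nephrectomized arrays positions 3 and 4, so position and group cannot be told apart.

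E2f1, the best known activator, was the member that rose. The processed signal of its brighter probe was 220, 177, 174 and 254 in sham replicates 1 to 4 and 441, 750.5, 570 and 699 in nephrectomized replicates 1 to 4. On the log2 scale its level was -1.55, -1.62, -1.41 and -1.15 in sham and -0.17, 0.71, 0.23 and 0.85 in nephrectomized kidneys. The groups did not overlap, with replicate 4 the highest array of each group and nephrectomized replicate 1 the lowest of its group. The group means were -1.43 ± 0.21 and 0.41 ± 0.47 (SD, n = 4 each), a 3.57-fold increase (95% interval 2.51 to 5.07). In limma over 20910 features the log2 change was 1.84 ± 0.22 (SE; adjusted p = 0.0150). It was the 35th largest increase of all features tested. In whole kidney RNA a change in the number of cells of a type and in RNA per cell cannot be told apart. Of all features 0.751% were called higher and 0.287% lower, and 7.06% had every nephrectomized array above every sham array.

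The call on E2f1 was lost without some single sham arrays, though the size of its change moved little. Leaving out sham replicate 1, 2 or 3 also cut the features called higher over all from 157 to 41, 21 and 26. Without sham replicate 1, 2 or 3 the adjusted p was 0.0507, 0.0589 and 0.0502, and with no filter on dim probes 0.0566, with changes between 1.77 and 1.84. Within each slide, with 2 arrays a group, the change was 1.85 and 1.82 with adjusted p of 0.453 and 0.425.

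**Figure D1:**
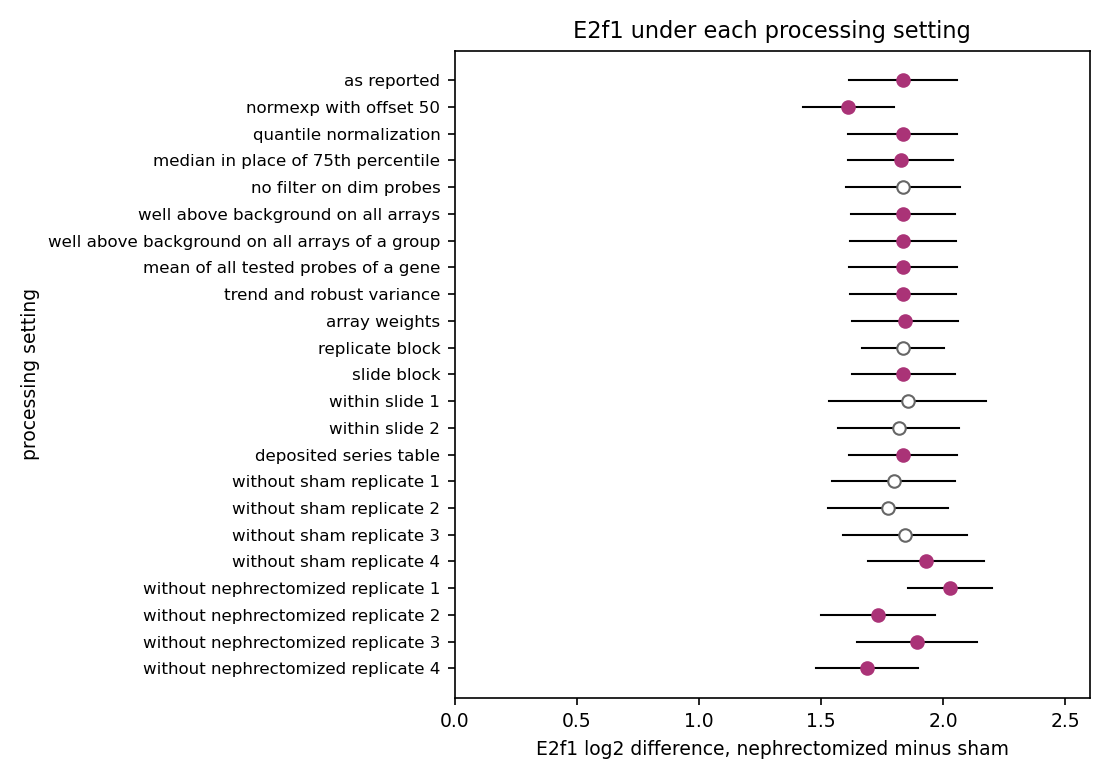
E2f1 log2 difference, nephrectomized minus sham, with its SE as a line, as reported and under 22 other settings of normalization, filter, variance model, block and array set. Filled circles passed an adjusted p of 0.05 and open circles did not. The difference lies between 1.61 and 2.03 throughout and passed in 15 of the 22.

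The dimmer E2f1 probe rose well above background on 2 nephrectomized arrays and on 0 sham arrays. It read -5.36, -6.18, -5.81 and -4.84 in sham and -5.19, -4.07, -4.42 and -3.54 in nephrectomized kidneys, so the groups overlapped by 1 array, nephrectomized replicate 1. With the sham values set no lower than the faintest signal called above background on each array, the increase was 1.09-fold. The nephrectomized values were taken as read, though not all were well above background, so this is no firm lower limit. This probe was too dim to be tested.

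**Figure D2:**
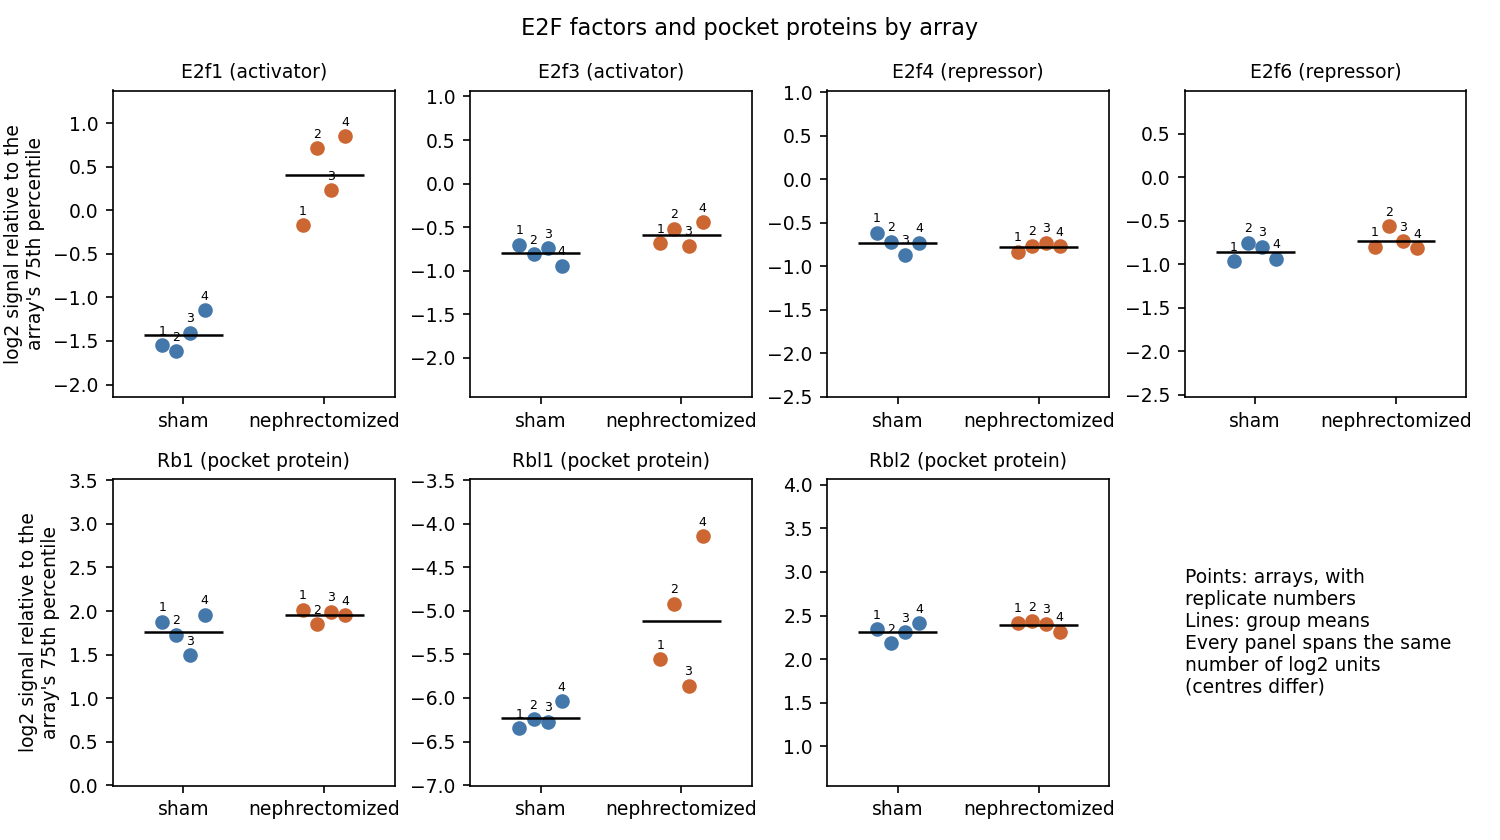
Log2 signal relative to the array's 75th percentile (vertical axis) of the brightest probe of each of the 7 members on the 4 sham and 4 nephrectomized arrays, with replicate numbers and group means as lines. E2f1 does not overlap between groups, with group means 1.84 apart, whereas E2f3, E2f4, E2f6, Rb1 and Rbl2 overlap, and Rbl1 lies near background.

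E2f3, the other activator measured, did not pass the test. Its level was -0.70, -0.81, -0.74 and -0.94 in sham and -0.68, -0.52, -0.71 and -0.44 in nephrectomized kidneys. Nephrectomized replicates 1, 2 and 4 lay above all sham arrays, replicate 1 by little, and replicate 3 lay just below sham replicate 1. The log2 difference was 0.21 ± 0.08 (SE; limma adjusted p = 0.273; 95% interval 0.02 to 0.40). Its unadjusted limma p was 0.0354, and 9.74% of all features were higher and 6.31% lower at an unadjusted p under 0.05. A dimmer E2f3 probe, well above background on 1 sham and 2 nephrectomized arrays, differed by 0.40 and was not tested.

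The repressors E2f4 and E2f6 did not pass the test. E2f4, which carries the pocket proteins to promoters in resting cells, was at -0.62, -0.72, -0.87 and -0.73 in sham and -0.83, -0.77, -0.73 and -0.77 in nephrectomized kidneys. All 4 nephrectomized arrays lay inside the sham range, and the log2 difference was -0.04 ± 0.07 (SE; limma adjusted p = 0.815; 95% interval -0.19 to 0.11). The second E2f4 probe differed by 0.08 (adjusted p = 0.715 with every probe tested on its own), so the probes differed in sign with neither past the threshold.

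E2f6, which represses without a pocket protein and works through Polycomb proteins, was at -0.97, -0.75, -0.80 and -0.94 in sham and -0.80, -0.57, -0.74 and -0.82 in nephrectomized kidneys. Its groups overlapped, with nephrectomized replicate 2 the highest array. The log2 difference was 0.13 ± 0.08 (SE; limma adjusted p = 0.455; 95% interval -0.05 to 0.32). Set against these, the interval for E2f1 began at 1.33.

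Activators and repressors were also set side by side within each array. The mean of E2f1 and E2f3 minus the mean of E2f4 and E2f6 was -0.33, -0.48, -0.24 and -0.21 in sham and 0.39, 0.77, 0.49 and 1.00 in nephrectomized kidneys. The zero of this gap has no meaning, since it compares different probes, but its shift of 0.98 does not depend on the scaling of the arrays. With E2f3 as the only activator the shift was 0.16, from 0.00 ± 0.10 to 0.16 ± 0.14 (SD, n = 4 each), and the groups overlapped. No p is given because the members were chosen with results of these data known.

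The pocket proteins Rb1 and Rbl2 did not pass the test. Rb1, the retinoblastoma protein itself, was at 1.88, 1.73, 1.49 and 1.96 in sham and 2.02, 1.85, 1.99 and 1.95 in nephrectomized kidneys. The groups overlapped, and sham replicate 3 was the lowest array. The log2 difference was 0.19 ± 0.10 (SE; limma adjusted p = 0.411; 95% interval -0.05 to 0.42), and 0.03 at its second probe (adjusted p = 0.935 with every probe tested on its own).

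Rbl2, or p130, the pocket protein most tied to resting cells, was at 2.34, 2.18, 2.31 and 2.41 in sham and 2.42, 2.44, 2.41 and 2.32 in nephrectomized kidneys. The groups overlapped within a narrow range. The log2 difference was 0.08 ± 0.07 (SE; limma adjusted p = 0.580; 95% interval -0.07 to 0.23) and 0.10 at the second probe (adjusted p = 0.611 with every probe tested on its own).

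Rbl1, or p107, the pocket protein known as an E2F target in cycling cells, passed the background threshold on a single array of the 8, that of nephrectomized replicate 4. Its signal gave -6.35, -6.24, -6.27 and -6.04 in sham and -5.55, -4.92, -5.86 and -4.15 in nephrectomized kidneys. All nephrectomized arrays read above all sham arrays, but at signals not well above background on 7 of the 8. Against the faintest signal called above background the nephrectomized mean was lower, so no fold is given.

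**Figure D3:**
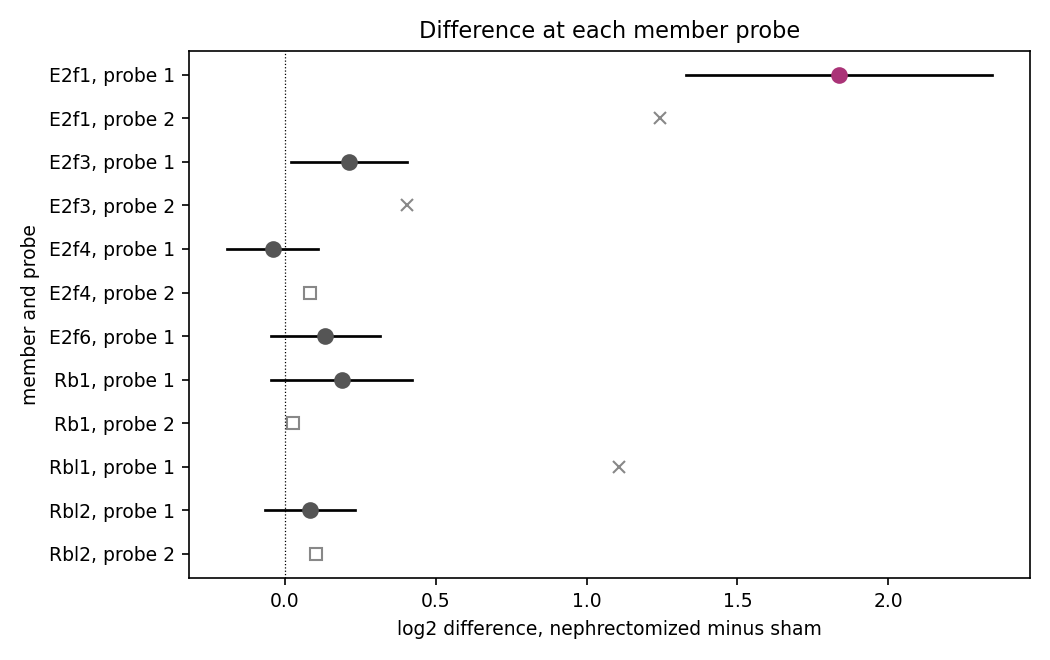
Log2 difference, nephrectomized minus sham, at each of the 12 member probes. Circles with lines are the tested probe of a gene with its 95% interval, filled purple where past the threshold and grey where not, squares are second probes that met the filter, and crosses are probes that did not. E2f1 stands at 1.84 and the other 5 tested members lie between -0.04 and 0.21.

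Over the 6 tested members, 1 rose and 0 fell in limma (2 and 0 at an unadjusted p under 0.05), against 0.751% and 0.287% of all features called and 9.74% and 6.31% at an unadjusted p under 0.05. Positive differences were found in 5 of the 6, against 52.5% of all features, with a median of 0.16 against 0.01 over all features. The median was 1.02 for the 2 activators, 0.05 for the 2 repressors and 0.14 for the 2 pocket proteins. For the activators this is only the midpoint of E2f1 at 1.84 and E2f3 at 0.21, and it describes neither gene. The repressor median was 0.018 without nephrectomized replicate 2, and that of the pocket proteins was 0.090 without sham replicate 3. Rb1 was at 0.098 without sham replicate 3 and Rbl2 at 0.039 without sham replicate 2.

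Several E2F and pocket protein genes are themselves known E2F targets, so their promoters are shown. The RefSeq promoter table (GRCr8) matched 5 of the 7 genes by symbol, E2f3, E2f6, Rb1, Rbl1 and Rbl2, each with 250 bases before and 50 after the start. E2f1, the member called higher, and E2f4 had no match, so their promoters were not searched. The E2F site was searched as 4 words of 8 letters, TTTCCCGC, TTTGGCGC, TTTCGCGC and TTTGCCGC, on both strands, where words on opposite strands may overlap. It was found in Rbl1, E2f3 and Rb1, against 618 of 27457 promoters (2.25%). Counted from the start, with -1 the base before it, the word began at base -18 in Rbl1, at base -78 in E2f3 on the opposite strand and at base 3 in Rb1. Below are these 3 promoters and, for comparison, those of the S phase genes Mcm6 and Mcm3, which rose and hold 2 words each, 5′ to 3′ along the gene with the E2F words in capitals. Their positions in GRCr8 are chr3:166289327-166289626 (minus strand) for Rbl1, chr17:34810166-34810465 (plus strand) for E2f3, chr15:54911808-54912107 (minus strand) for Rb1, chr13:42404303-42404602 (minus strand) for Mcm6 and chr9:30733697-30733996 (minus strand) for Mcm3.
Rbl1: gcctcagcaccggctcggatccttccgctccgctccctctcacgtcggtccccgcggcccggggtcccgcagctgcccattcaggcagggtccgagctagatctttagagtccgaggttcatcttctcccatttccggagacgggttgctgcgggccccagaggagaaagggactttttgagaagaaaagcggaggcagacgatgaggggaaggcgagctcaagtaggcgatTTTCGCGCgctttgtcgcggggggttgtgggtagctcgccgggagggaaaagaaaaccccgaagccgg
E2f3: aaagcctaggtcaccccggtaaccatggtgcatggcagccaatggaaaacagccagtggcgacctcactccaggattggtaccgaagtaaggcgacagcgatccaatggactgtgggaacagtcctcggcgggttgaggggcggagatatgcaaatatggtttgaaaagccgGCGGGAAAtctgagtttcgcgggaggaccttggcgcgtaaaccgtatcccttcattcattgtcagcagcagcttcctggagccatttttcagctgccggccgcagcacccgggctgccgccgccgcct
Rb1: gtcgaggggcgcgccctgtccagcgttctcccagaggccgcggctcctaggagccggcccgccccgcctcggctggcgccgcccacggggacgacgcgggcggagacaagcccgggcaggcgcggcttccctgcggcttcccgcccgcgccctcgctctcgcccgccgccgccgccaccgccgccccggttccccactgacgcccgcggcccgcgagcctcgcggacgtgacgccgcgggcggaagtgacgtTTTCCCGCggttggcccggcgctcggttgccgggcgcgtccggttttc
Mcm6: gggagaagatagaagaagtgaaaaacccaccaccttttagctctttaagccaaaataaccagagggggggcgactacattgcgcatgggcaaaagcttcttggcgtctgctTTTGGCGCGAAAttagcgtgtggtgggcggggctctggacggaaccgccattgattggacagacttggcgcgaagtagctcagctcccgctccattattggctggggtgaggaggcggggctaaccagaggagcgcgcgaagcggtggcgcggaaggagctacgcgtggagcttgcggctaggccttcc
Mcm3: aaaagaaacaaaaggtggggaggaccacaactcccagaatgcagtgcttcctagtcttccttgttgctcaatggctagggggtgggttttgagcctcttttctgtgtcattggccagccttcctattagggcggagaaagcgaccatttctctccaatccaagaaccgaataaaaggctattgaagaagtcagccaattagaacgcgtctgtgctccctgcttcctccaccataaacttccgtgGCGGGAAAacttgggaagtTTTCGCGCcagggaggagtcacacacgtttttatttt

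Among the listed partners and regulators of the family, Ccne1 and Mybl2 passed the test. Of the DNA-binding dimer partners, Tfdp1 was at 0.03 ± 0.08 and Tfdp2 at -0.19 ± 0.06 (SE; limma adjusted p = 0.892 and 0.194), the latter with all nephrectomized arrays below all sham arrays, which 4.07% of all features show. E2f7, an atypical repressor, was well above background on 0 of 8 arrays. Among 8 G1 cyclins and kinases, with a median of 0.08, 1 rose and 0 fell, against 0.751% and 0.287% of all features. The 1 that rose was Ccne1, cyclin E1, which phosphorylates pocket proteins with Cdk2 and is an E2F target. Its level was -2.49, -2.73, -2.44 and -2.58 in sham and -1.64, -1.03, -1.26 and -0.48 in nephrectomized kidneys, with no overlap. This was a 2.74-fold increase (log2 change 1.45 ± 0.22 SE; limma adjusted p = 0.0357). The call held without nephrectomized replicate 1 or 4 and was lost without any other single array, at adjusted p between 0.0704 and 0.0998. Ccne2, the other cyclin E gene of the list, was at 0.23 and Cdk2 at 0.08 (limma adjusted p = 0.612 and 0.621). The D cyclins Ccnd1, Ccnd2 and Ccnd3, which start pocket protein phosphorylation, were at 0.08, -0.09 and 0.02, and their kinases Cdk4 and Cdk6 at 0.11 and 0.02, none past the threshold.

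Of 5 tested CDK inhibitors 0 passed in limma. At an unadjusted limma p under 0.05, 2 were higher and 1 lower, against 9.74% and 6.31% of all features. Cdkn1c, the member named by rule, was at -0.14 ± 0.12 (SE; limma adjusted p = 0.591), and the list ran from -0.20 for Cdkn1b to 0.34 for Cdkn2d. Of 7 pocket protein corepressors 0 passed in limma (0 at an unadjusted p under 0.05), from -0.08 to 0.13, with Sin3b at -0.01. Of 6 tested members of the Polycomb complex that works with E2f6, 0 passed in limma (0 at an unadjusted p under 0.05), from -0.14 to 0.01, with Cbx3 at 0.01. The MuvB complex joins E2f4 and p130 in resting cells and Mybl2 and Foxm1 in cycling cells. Of its 6 tested genes, Mybl2 rose 1.95-fold (log2 change 0.97 ± 0.16 SE; limma adjusted p = 0.0428; 0.47 and adjusted p = 0.0696 under the alternative called normexp, which starts from the raw median intensity in place of the processed one, corrects its background and adds an offset of 50). Without any single array other than nephrectomized replicate 1 its adjusted p lay between 0.0784 and 0.109. Foxm1 was at 0.77 ± 0.21 (SE; limma adjusted p = 0.129) with no overlap between groups, and the core subunits Lin37, Lin52, Lin54 and Rbbp4 were at 0.10, 0.02, 0.38 and -0.03.

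Genes that E2Fs are known to drive in S phase held 7 of the called increases. Of 32 tested genes of this list 7 rose and 0 fell, against the 0.751% of all features called higher, and 30 had positive values, with a median of 0.47. This list and that of G2 and mitosis below were chosen with earlier results of these data known. Chek1, a checkpoint kinase, rose by 1.25 ± 0.14 and Gmnn, the inhibitor of origin licensing, by 0.85 ± 0.10 (SE; limma adjusted p = 0.0137 for both). Chek1 was well above background on 2 of the 4 sham arrays, and Gins2, at 1.16 and not called, on 1. Both passed the filter on dim probes only with the nephrectomized arrays. The helicase subunit Mcm6 was at -3.79, -3.68, -3.41 and -3.40 in sham and -2.52, -1.68, -2.18 and -1.67 in nephrectomized kidneys. Its groups did not overlap, and nephrectomized replicate 1 was again the lowest of its group. It rose by 1.56 ± 0.20 (SE; limma adjusted p = 0.0175), a 2.95-fold increase. The other called genes were Mcm3, Cdc45, Prim1 and Mcm2, at 1.41, 0.91, 0.48 and 0.62. With normexp Chek1 was at 0.51, Gmnn at 0.50 and Mcm6 at 0.85, all past the threshold. The count of 7 became 2, 1, 1 and 3 without sham replicate 1, 2, 3 or 4, and 12, 3, 2 and 4 without nephrectomized replicate 1, 2, 3 or 4.

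Of 16 tested genes of G2 and mitosis, which MuvB complexes control through the CHR element, 3 rose and 0 fell. Among all features 0.751% were called higher and 0.287% lower. All 16 genes had positive values, and their median was 1.77. Ttk, Ccnb2 and Cdk1 rose by 2.63, 2.41 and 2.30 (limma adjusted p = 0.0394, 0.0412 and 0.0428). Ttk was well above background on 2 of the 4 sham arrays, and Tpx2, Cenpf and Prc1 on 1 each. These genes passed the filter on dim probes only with the nephrectomized arrays, where they were high. That favours increases in the count of positive values, in the median and in the list means below. With normexp Ttk was at 1.45 and Ccnb2 at 1.60. The count was 0 without any single array other than nephrectomized replicate 1 and 12 without that one.

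**Figure D4:**
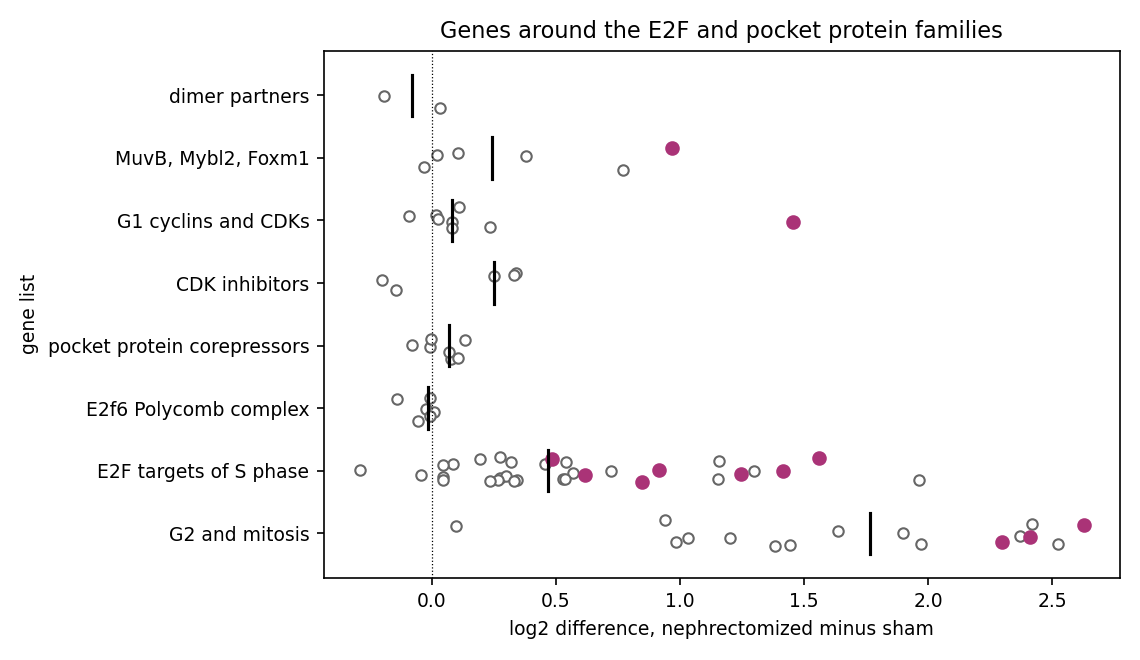
Log2 difference, nephrectomized minus sham, of each tested gene in 8 lists around the E2F and pocket protein families. Filled purple circles passed the threshold, open circles did not, and the vertical bar is the list median. The lists of S phase targets and of G2 and mitosis hold 7 and 3 called genes with medians of 0.47 and 1.77, and the other 6 lists hold Mybl2 and Ccne1 only.

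In the Mcm6 promoter shown above the words lie on opposite strands and overlap, which leaves 1 run of capitals. In that of Mcm3 they stand apart, the first across the start and the second after it. Rb1 and E2f3 hold the word and did not pass the test, whereas Cdc45 and Prim1 rose with no E2F word in this window. Of the S phase list 21 of 33 promoters held an E2F word (63.6%), and of its 7 called genes 5 did (71.4%). Of the G2 and mitosis list 1 of 17 did (5.88%). The CHR element, searched as TTTGAA and TTCGAA on both strands, was in 13 of those 17 promoters (76.5%) and in 6 of the 33 of the S phase list (18.2%), against 19.5% of all promoters. The median GC content was 59.7% in both lists, 63.0% over the 5 members and 52.3% over all promoters. The lists were chosen as known E2F targets and known CHR genes, so a high share of their own word follows from that choice. A match is a string of letters and no measure of binding.

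The nephrectomized kidneys kept the same order for E2f1 and for these lists. Relative to the sham mean, E2f1 was 1.26, 2.14, 1.66 and 2.28 higher in replicates 1 to 4. The mean of the S phase list was 0.33, 0.66, 0.51 and 0.80 higher, and that of the G2 and mitosis list 0.74, 2.04, 1.51 and 2.52. In each case replicate 1 was lowest, then replicate 3, then 2, then 4. This order was not particular to them. The CDK inhibitor mean (-0.06, 0.18, 0.07 and 0.27) and the corepressor mean (-0.06, 0.06, 0.00 and 0.17) had it with no gene called. So did the MuvB list and the G1 cyclins and kinases, but not the dimer partners or the E2f6 Polycomb complex. The share of probes well above background also ran from replicate 1 through 3 and 2 to 4, at 59.4%, 63.3%, 61.5% and 66.0% in replicates 1 to 4, against 61.0% to 62.3% in sham. The array's 75th percentile, which is subtracted from every level, had the reverse order, at 497, 457, 485 and 388 in nephrectomized replicates 1 to 4. Before this scaling the E2f1 signal was highest in replicate 2, at 750.5 against 699 in replicate 4. The part of either in these differences was not tested.

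Some leukocyte markers fell. Of 6 tested markers S100a9, S100a8 and Adgre1 fell, by 1.40, 1.69 and 0.51 on the log2 scale (limma adjusted p = 0.0187, 0.0357 and 0.0474), and 0 rose. Among all features 0.287% were called lower and 0.751% higher. The S100a8 call was lost without any single array other than nephrectomized replicate 1, that of Adgre1 without any single array, and that of S100a9 without sham replicate 2 or 3 or nephrectomized replicate 3. With normexp S100a8 was at -1.02. Ptprc, Cd68 and Lyz2 were at -0.33, -0.11 and -0.04 (limma adjusted p = 0.239, 0.528 and 0.842). The mean of all 6, to which S100a8 and S100a9 contributed most, lay 0.62 to 0.80 below the sham mean on the nephrectomized arrays, whereas the summed level overlapped, at 22.6 to 25.3 times the 75th percentile in sham and 20.5 to 24.3 in nephrectomized kidneys. Most of that sum was Lyz2, with a mean level of 4.27 in sham and 4.22 in nephrectomized kidneys. Cd68, the next brightest, was at 1.26 and 1.15. Itgam was well above background on 0 arrays and Cd3e on 1. Their part in the E2f1 difference was not tested.

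**Figure D5:**
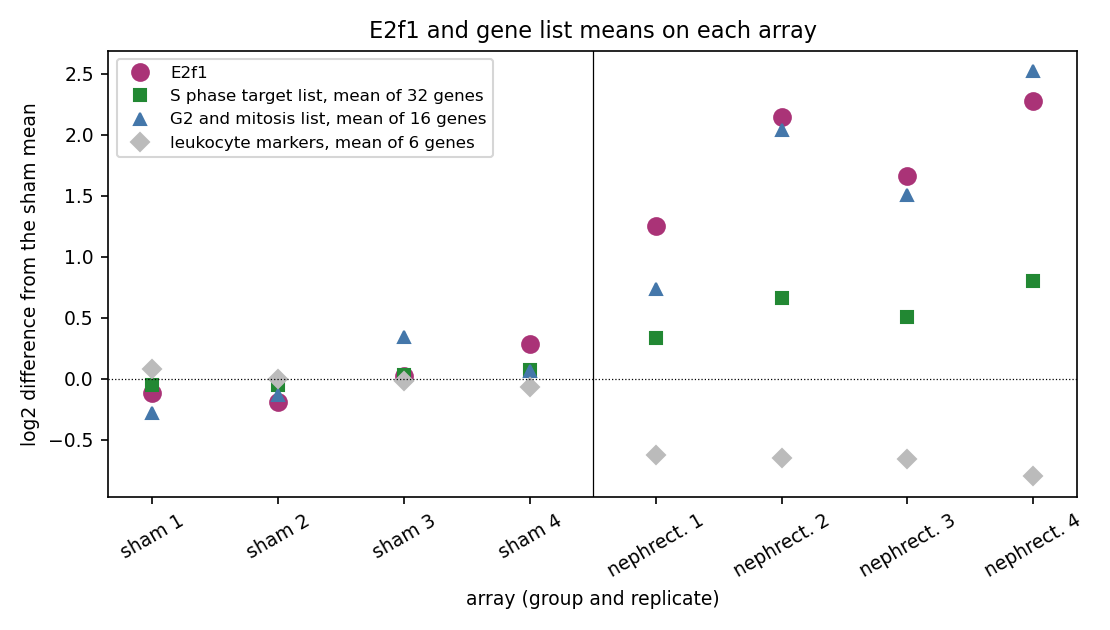
Log2 difference from the sham mean (vertical axis) on each of the 8 arrays for E2f1, for the mean of 32 S phase target genes, for the mean of 16 G2 and mitosis genes and for the mean of 6 leukocyte markers. On the nephrectomized arrays E2f1 lies between 1.26 and 2.28 and follows the order of both cell cycle lists, while the leukocyte mean lies between -0.80 and -0.62. Other lists, not drawn, have the same order.

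The features most like each member over the 8 arrays were taken by Pearson's r of the log2 values, a description that includes the difference between the groups. For E2f1 they were Chaf1b, a subunit of the chromatin assembly factor of replicating DNA (r = 0.997), Mcm6 (r = 0.996) and Cdca3, which acts at entry into mitosis (r = 0.991). All 3 were called higher, at 1.37, 1.56 and 2.38. For E2f3 they were Mxd3, Inppl1 and Kcnq1 (r between 0.961 and 0.976), at 0.44, 0.21 and 0.20 and not past the threshold. The nearest features to E2f4, E2f6, Rb1 and Rbl2 were Mcmbp, Ankrd13c, Mlf2 and Apeh, with r of 0.963, 0.972, 0.982 and 0.967 and changes between -0.04 and 0.12.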

How the data were processed

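The arrays were scanned and quantified in Agilent Feature Extraction (version 10.5.1.1, per the file headers). For every spot the authors deposited a processed intensity per spot, linear, background-subtracted and not normalized between arrays, with raw median intensity and flags, per the file headers. A table of log2 values that the authors deposited for the whole series matched these intensities in scale and direction once shifted to the 75th percentile and centred per probe (correlation at least 0.999997). Its column medians were -0.0145, -0.00231, -0.00103 and -0.00968 in sham and 0.00123, 0.0124, -0.000916 and 0.0153 in nephrectomized replicates. Of 45018 spots 1639 controls were left out, as were outlier spots. Log2 values minus each array's 75th percentile were averaged per probe. A feature needed to be well above background on at least 4 of 8 arrays and to have a value on all 8. Probes were named by RefSeq accession (assembly GRCr8, 18713 of 41012 probes). The array headers name another assembly. A gene was represented by its brightest probe, by mean over all arrays, and other probes are given beside it.

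Nephrectomized was compared with sham in limma (version 3.58.1, R 4.3.3), all 8 arrays in the fit and no covariates, with Benjamini-Hochberg adjustment over 20910 features and a threshold of 0.05. The fit was tested on simulated arrays. The members, lists and rules were chosen with earlier results of these data known. Named are all members, up to 3 called genes a list or else its brightest, and for each tested member the 3 features with the highest Pearson r. The other genes were named after their values were seen. The labels list the samples as separate without naming animals. The p-values therefore reflect only the spread among these samples, which may be technical, and the number of arrays limits the precision. Alternatives covered background correction, normalization, filters, the probe rule, the variance model, array weights, blocks, single slides, the deposited table and leaving out each array.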

Additional observations from a re-analysis of the deposited data

Results flagged for a closer look

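1 of the 24 groups of 4 arrays checked (2 groups for each of the 12 member probes) held an array far from the others. At the second Rbl2 probe, nephrectomized replicate 2 was at -0.51 and the others lay near -0.80, a gap of 0.973 of the whole range, which is past Dixon's 95% critical value. Chance gives about 1 such group in 20.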

How the results depend on the processing

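E2f1 kept its direction in all 22 alternatives (1.61 to 2.03) and was past the threshold in 15, with adjusted p from 0.00286 to 0.453. The 1 member called higher became 0 with no filter on dim probes, with a replicate block (adjusted p = 0.0824 for E2f1) and within slide 1 or slide 2, and ranged from 0 to 1 with single arrays left out. No member was called lower in any of the 22. E2f3, E2f6, Rb1 and Rbl2 stayed positive in all 22 and E2f4 was positive in 2, the mean of its probes and slide 2, none past the threshold. Over all features the counts higher and lower were 157 and 60, and 17 and 3 with no filter. They were 295 and 99 for features above background on all arrays, 267 and 96 on all arrays of a group, 399 and 132 with trend and robust variance, and 386 and 118 with array weights. They were 6 and 4 with the replicate block, 69 and 31 with slide as a block, 0 and 0 within either slide, and between 21 and 152 and between 5 and 33 with single arrays left out. Deviations of same-numbered arrays correlated at 0.141, 0.0115, -0.0565 and -0.208, and those of other pairs between -0.210 and 0.241. This gave no sign that the replicate numbers pair the samples, but so few arrays cannot exclude it. Added after seeing the data were the counts of 7 S phase and 3 G2 and mitosis genes. These were 11 and 10 with normexp (raw median intensity, offset 50), 0 and 0 with no filter, 12 and 7 above background on all arrays, 13 and 7 on all arrays of a group, 14 and 10 with trend and robust variance, 12 and 10 with array weights, 0 and 0 with the replicate block or within either slide, 4 and 1 with slide as a block, and 1 to 12 and 0 to 12 with single arrays left out. Rbl1 and the dim probes of E2f1 and E2f3 are limited by signal over background.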
